A study of Homo sapiens with 6 samples.

Results

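The D cyclins CCND1, CCND2 and CCND3, their kinases CDK4 and CDK6, and the CDK inhibitors CDKN1A, CDKN1B, CDKN2A, CDKN2B and CDKN2C were taken from the deposited tables by gene symbol, which gave 10 of the 30987 genes in the count table. All 10 were also in the FPKM table and all 10 passed the filter on low counts. The cells were HepG2, an established human liver tumour line with hepatocyte features. The siPAIP1 group was transfected by lipid reagent with a single siRNA duplex, siRNA3, against PAIP1, a poly(A) binding protein interacting protein that regulates translation and mRNA decay, and the Ctrl group received a non-targeting control siRNA by the same route. Cells of both groups were harvested 48 h after transfection, and poly(A) RNA was sequenced in 3 biological replicates per group, 6 libraries in all. With 1 siRNA, an effect of the loss of PAIP1 and an effect of that duplex on other transcripts cannot be told apart.

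D cyclins bind and activate CDK4 and CDK6 early in G1, and the active kinases phosphorylate RB and its relatives, which then release E2F factors to drive genes of DNA replication. INK4 inhibitors (p16 and p15 from CDKN2A and CDKN2B, p18 from CDKN2C) bind CDK4 and CDK6 directly and keep the cyclin off, whereas the CIP/KIP proteins p21 (CDKN1A) and p27 (CDKN1B) bind cyclin and kinase together and inhibit mainly CDK2 complexes. CCND1 is the D cyclin most tied to hepatocyte growth, and CDKN2A also encodes p14ARF, an inhibitor of MDM2, from an upstream first exon.

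The antisense strands of the siRNA duplexes are printed because short matches of their seed (bases 2 to 8, in capitals) to transcripts bear on how the values of D cyclins can be read.
siPAIP1 siRNA3: uAUCAUCCaaguauggauctt
Ctrl siRNA: aCGUGACAcguucggagaatt
The word that pairs with the siRNA3 seed, GGATGAT, occurred 2 times in the 3′ UTR of CCND1, at bases 1229 and 2561 of 3192, in the canonical transcript of GENCODE 44. It occurred once in the 3′ UTR of CCND2, at base 2702 of 5344, and once in that of CDK6, at base 5166 of 10219, and in none of the 3′ UTRs of the other 7 genes. The match at base 1229 of CCND1 and the match in CCND2 were followed by an A, which lengthens the match to 8 bases. Of 19701 canonical coding transcripts searched, 7.65% held the word in the 3′ UTR, and 0.783% of 19675 genes held it 2 or more times. The median 3′ UTR of all transcripts searched, with or without the word, was 1019 bases. The word of the control seed, TGTCACG, was in no 3′ UTR of the 10 genes and in 2.57% of all. In coding sequences it was found 1 time in CDK6, and in 3.57% of all transcripts. PAIP1 itself held the siRNA3 word 1 time, in its coding sequence. Among tested genes with these transcripts, 17 of 104 with 2 or more siRNA3 words were called lower (16.3%, median log2 fold change −0.01), against 96 of 899 with 1 word (10.7%, median −0.04) and 734 of 10755 with none (6.82%, median 0.03). CCND1 is itself 1 of the 17. Called higher were 4.81%, 4.45% and 6.3% of these classes in that order. The median 3′ UTR lengths of these classes were 4960, 3046 and 1143 bases in that order. CCND2 and CDK6, which hold the word, rose, and CCND1, which holds it 2 times, fell. These matches are a description, and their part in the values of CCND1, CCND2 or CDK6 was not tested.

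The starts of CDKN2A and CDKN2B are printed because these inhibitors lie next to each other on chromosome 9, on the minus strand, with 7601 bases between the annotated genes, and changed in the same direction. Each run holds 300 bases of RefSeq sequence (GRCh38.p14, minus strand), 250 before and 50 after the start, with capitals marking GC boxes (GGGCGG, on either strand).
CDKN2A upstream start, chr9:21995275-21995574: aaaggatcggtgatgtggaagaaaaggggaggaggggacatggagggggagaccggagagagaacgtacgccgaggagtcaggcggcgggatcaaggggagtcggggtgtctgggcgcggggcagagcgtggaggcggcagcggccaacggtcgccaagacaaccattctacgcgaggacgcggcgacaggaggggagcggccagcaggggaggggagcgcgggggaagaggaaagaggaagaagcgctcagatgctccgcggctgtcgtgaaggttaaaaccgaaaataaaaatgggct
CDKN2A downstream start, chr9:21974808-21975107: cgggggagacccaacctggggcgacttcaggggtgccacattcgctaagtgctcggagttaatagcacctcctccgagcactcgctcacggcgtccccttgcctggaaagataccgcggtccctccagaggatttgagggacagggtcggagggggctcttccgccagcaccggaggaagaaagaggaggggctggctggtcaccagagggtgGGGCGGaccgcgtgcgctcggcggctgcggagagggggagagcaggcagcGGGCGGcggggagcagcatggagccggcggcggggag
CDKN2B start, chr9:22009256-22009555: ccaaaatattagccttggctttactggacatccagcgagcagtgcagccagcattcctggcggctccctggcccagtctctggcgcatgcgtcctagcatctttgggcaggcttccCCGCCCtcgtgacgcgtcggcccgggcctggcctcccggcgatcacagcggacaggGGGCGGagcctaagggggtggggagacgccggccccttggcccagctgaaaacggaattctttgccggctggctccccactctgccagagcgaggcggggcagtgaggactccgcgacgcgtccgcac
The upstream start, where the p14ARF transcript begins, had 63.3% G and C and 0 GC boxes. The downstream start of the p16 transcript had 69.0% G and C with 2 GC boxes, and CDKN2B had 67.3% with 2. The median G and C content of all promoters in the table was 58.7%. RefSeq windows were found for 8 of the 10 genes, all but CCND1 and CCND2, with 14 windows in all. A GC box was in 10 of the 14, against 45.0% of 35116 promoters of the same length. The E2F words TTTCGCGC or TTTGGCGC, the cAMP response element TGACGTCA and the TATA box TATAAA, each sought on both strands, were in 0 of the 14 windows. They were in 1.15%, 1.85% and 11.5% of all promoters in that order, so 0 of 14 windows does not set these genes apart. Other forms of these sites were not sought.

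The libraries held 29313211 to 34157368 counted fragments in siPAIP1 and 31045623 to 34659866 in Ctrl. PAIP1 itself was at 8.29, 6.54 and 5.47 FPKM in siPAIP1, against 26.83, 22.96 and 26.01 FPKM in Ctrl (log2 fold change −1.93, SE 0.13, adjusted p = 0.000918 by edgeR). The third siPAIP1 library stood apart, with 357 of 9247 well-counted genes more than 2-fold above the mean of its group's other libraries, against at most 7 genes in any other library. Results are therefore given with and without it where it matters. When it was left out, edgeR called 11.8% of 15732 tested genes higher and 12.4% lower, and the counts made without it are to be read against these shares. Leaving out any other library cut the calls over all genes, from 882 higher to between 187 and 571. The lower calls went from 963 to between 269 and 649, and calls lost in those fits are to be read beside this. Hepatocyte markers were expressed, at 8203 to 10245 summed CPM in siPAIP1 and 11915 to 12784 in Ctrl. With the third siPAIP1 library left out, 7 of 11 fell. With all libraries, 5 of 11 fell and 0 rose (median log2 fold change −0.45), beside 6.2% of all tested genes called lower. Among them, TF (transferrin) fell by 0.72 (adjusted p = 0.0140), APOA1 by 0.51 (adjusted p = 0.0189) and TTR by 0.52 (adjusted p = 0.0304), calls that were lost without the second siPAIP1 library or any of the Ctrl libraries. Their part in the values of the 10 genes was not tested. Of leukocyte markers 0 of 3 tested were called by edgeR or DESeq2 and 1 had an unadjusted p under 0.05, with LYZ alone at a high level (440 CPM in siPAIP1, 531 CPM in Ctrl) and PTPRC at no more than 1 count. Leaving out the third siPAIP1 library gave 1 of these called lower. Fibroblast and endothelial markers summed to 1.69 to 3.75 CPM in siPAIP1 and 2.20 to 2.73 CPM in Ctrl, also with 0 of 3 called by edgeR or DESeq2 and 1 at an unadjusted p under 0.05. In bulk RNA, fewer cells that express a gene and less RNA of it per cell cannot be told apart.

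Knockdown of PAIP1 was accompanied by a change in which D cyclin and INK4 transcripts the cells held. CCND2, CDK6, CDKN2A and CDKN2B rose and CCND1 and CDKN1A fell in siPAIP1. CCND3, CDK4, CDKN1B and CDKN2C did not pass the threshold, an adjusted p under 0.05 by edgeR's quasi-likelihood test over 15528 genes. The 4 genes called higher of 10 stand beside 5.68% of all tested genes called higher, and the 2 called lower stand beside 6.2% called lower. The libraries of the groups did not overlap for 7 of the 10 genes, against 36.6% of all tested genes. The median log2 fold change of the 10 genes was 0.05, against 0.03 over all tested genes. Changes of at least 2-fold were seen for CCND1, CCND2, CDKN2A and CDKN2B, and the calls of these 4 genes held in all 16 alternative fits. The calls of CDK6 and CDKN1A did not. The limma fits kept genes with an FPKM of at least 1 in 3 or more libraries, which CDKN2B reached in siPAIP1 alone. Its calls in the limma fits are therefore no support for its rise.

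**Figure D1:**
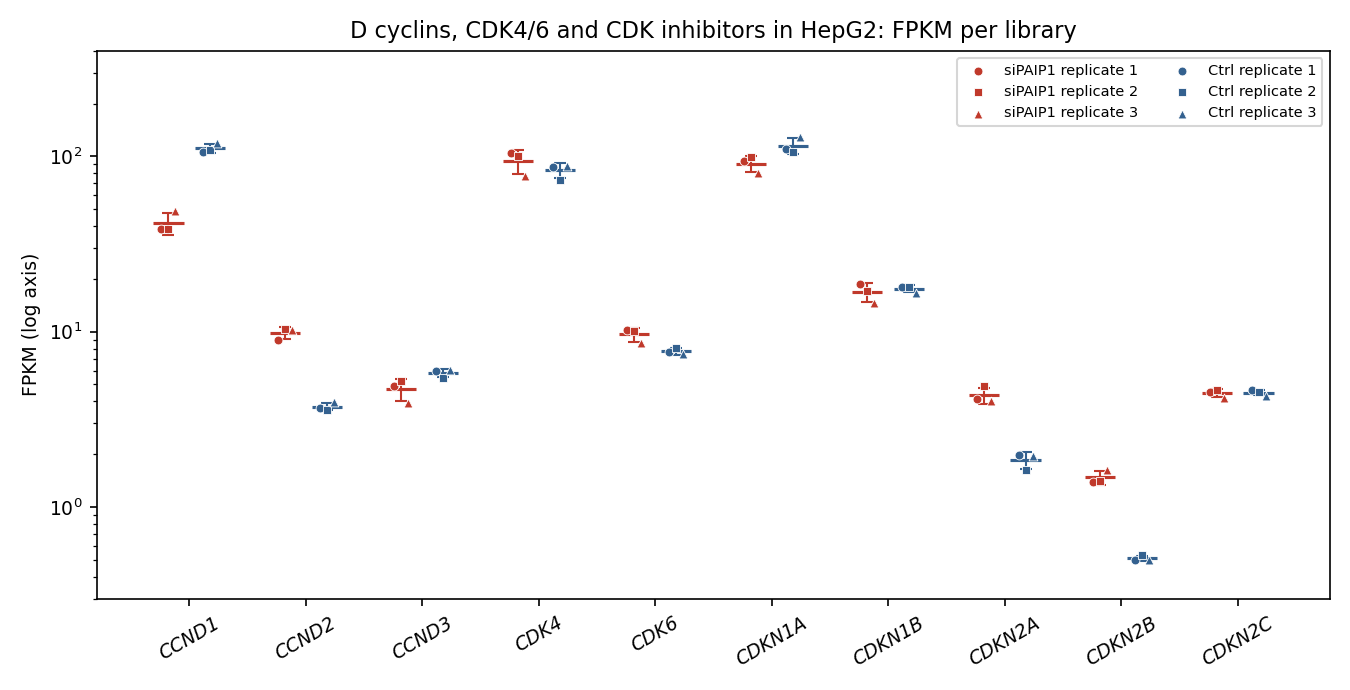
FPKM (log axis) of the 10 genes in each of the 3 siPAIP1 (red) and 3 Ctrl (blue) libraries, with marker shape for the replicate, a horizontal line for the group mean and bars for its SD. CCND1 lies near 41.7 FPKM in siPAIP1 and near 111 FPKM in Ctrl, while CCND2, CDKN2A and CDKN2B lie higher in every siPAIP1 library than in any Ctrl library.

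**Figure D2:**
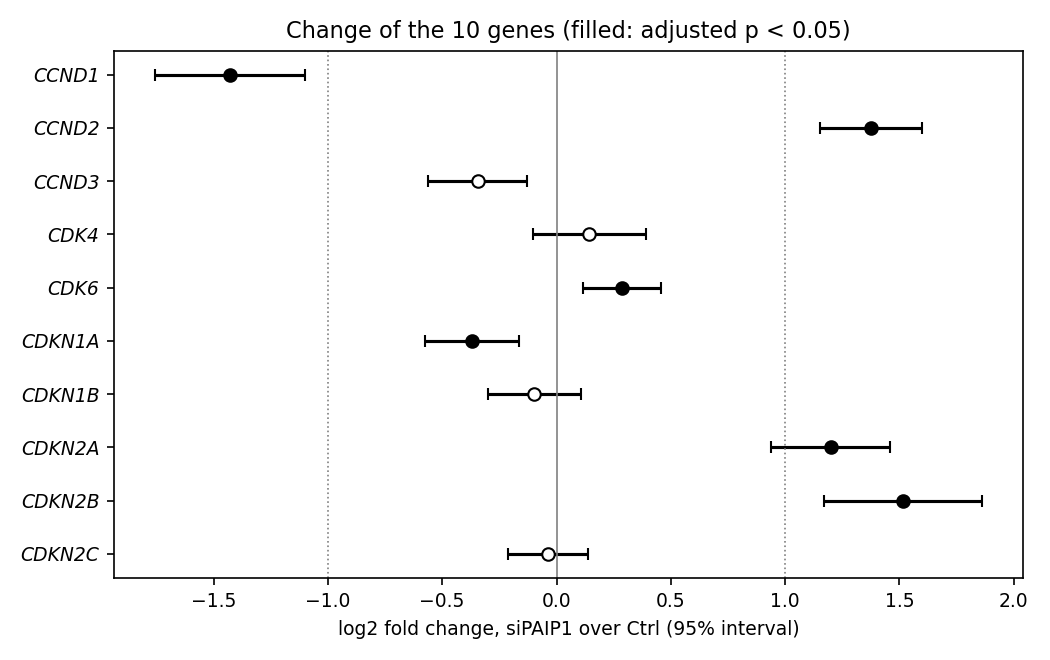
Log2 fold change of siPAIP1 over Ctrl from edgeR for each gene, with its 95% interval as a bar; filled points have an adjusted p under 0.05 and dotted lines mark a 2-fold change. The intervals of CCND1, CCND2 and CDKN2B lie wholly beyond 2-fold, and those of CDK4, CDKN1B and CDKN2C include 0.

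CCND1 (cyclin D1, ENSG00000110092.3, chr11:69641156-69654474, plus strand), the main D cyclin of these cells, was at 38.27, 38.31 and 48.57 FPKM in siPAIP1, against 106.02, 108.19 and 118.52 FPKM in Ctrl. No siPAIP1 library came near the Ctrl libraries, and the third siPAIP1 library was the highest of its group. It rested on 6153 to 7520 counts in siPAIP1 and 17440 to 17798 counts in Ctrl, and fell by 1.43 on the log2 scale, or to 37.2% of Ctrl (SE 0.14, 95% interval −1.75 to −1.10, adjusted p = 0.00221). Without the third siPAIP1 library the log2 fold change was −1.61, and over the 6 fits that each left out 1 library it lay between −1.61 and −1.35. A part of its exons, 497 bases or 10.4%, overlaps LTO1 on the opposite strand. That neighbour had 606 to 654 counts in siPAIP1 and 561 to 628 in Ctrl, far fewer than CCND1.

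CCND2 (cyclin D2, ENSG00000118971.7, chr12:4269771-4305353, plus strand) moved the other way. It was at 9.0, 10.42 and 10.16 FPKM in siPAIP1, against 3.68, 3.59 and 3.95 FPKM in Ctrl. The groups lay far apart, and the Ctrl libraries differed little among themselves. The rise was 1.38 on the log2 scale, or 2.59-fold (SE 0.10, 95% interval 1.15 to 1.6, adjusted p = 0.000918 by edgeR), and 1.30 without the third siPAIP1 library. The gene was carried by 2128 to 2492 counts in siPAIP1 and 856 to 891 in Ctrl. Of its exon bases 999, or 12.5%, overlap ENSG00000285901, a protein-coding gene on the same strand with no counts of its own. Whether reads of that gene were counted for CCND2 is not known.

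CCND3 (cyclin D3, ENSG00000112576.12, chr6:41934934-42050357, minus strand), a D cyclin best known from lymphoid cells, was at 4.91, 5.22 and 3.92 FPKM in siPAIP1, against 5.97, 5.45 and 6.03 FPKM in Ctrl. Every siPAIP1 library was below every Ctrl library, but by little. Its log2 fold change was −0.34 (SE 0.09, 95% interval −0.56 to −0.13), with an adjusted p of 0.0540 by edgeR that missed the threshold. Without the third siPAIP1 library, its lowest, the change was smaller (−0.27) and the call was made (adjusted p = 0.0174).

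Set side by side per length, the D cyclins changed in composition as well as in total. Their summed FPKM was 52.18, 53.95 and 62.65 in siPAIP1, against 115.67, 117.23 and 128.5 in Ctrl, so that the siPAIP1 mean was 46.7% of the Ctrl mean. CCND1 made up 73.3%, 71.0% and 77.5% of that sum in siPAIP1, against 91.7%, 92.3% and 92.2% in Ctrl. The share of CCND2 was 17.6% ± 1.58 in siPAIP1 and 3.11% ± 0.0657 in Ctrl (SD, n = 3 each). In FPKM the rise of CCND2 (6.12) was small beside the fall of CCND1 (difference −69.2), and CCND1 stayed the D cyclin with the highest level in every library. CCND2 was the lowest of the D cyclins in Ctrl and above CCND3 in each siPAIP1 library. The ratio of CCND1 to CCND3 was 7.79, 7.34 and 12.4 in siPAIP1, against 17.8, 19.9 and 19.7 in Ctrl. The groups did not overlap in this ratio, and an exact two-sided permutation gave p = 0.1, below which 3 libraries against 3 cannot go. The log2 difference of the ratio was −1.10, and −1.33 without the third siPAIP1 library.

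**Figure D3:**
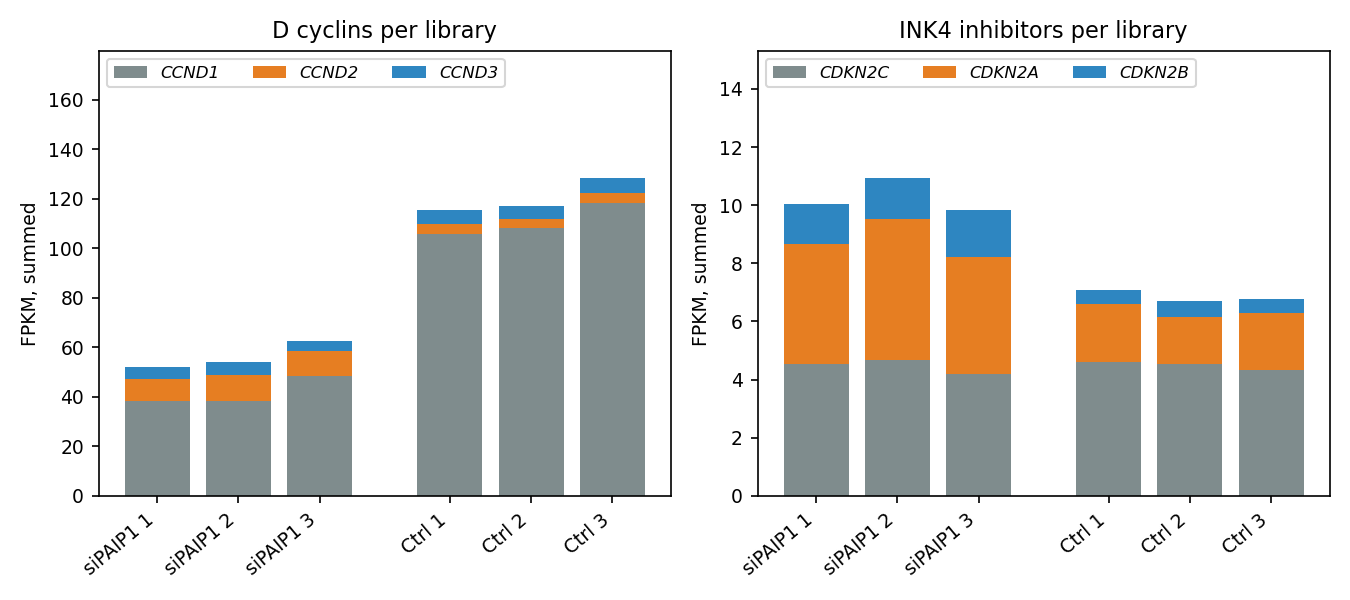
Summed FPKM per library (bars from 0) of the D cyclins on the left and of the INK4 inhibitors on the right, stacked by gene, with 3 siPAIP1 libraries beside 3 Ctrl libraries. The D cyclin bars are 52.18 to 62.65 FPKM in siPAIP1 and 115.67 to 128.5 FPKM in Ctrl with CCND1 as the main part, and the INK4 bars are 9.84 to 10.94 FPKM in siPAIP1 and 6.69 to 7.10 FPKM in Ctrl over a level CDKN2C part.

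The kinases moved little. CDK4 (ENSG00000135446.16, chr12:57747727-57756013, minus strand), the more abundant kinase partner, was at 104.6, 99.78 and 77.53 FPKM in siPAIP1, against 87.46, 73.55 and 88.6 FPKM in Ctrl. The groups overlapped, since the third siPAIP1 library was below 2 of the Ctrl libraries. The log2 fold change was 0.14 (95% interval −0.10 to 0.39, adjusted p = 0.400 by edgeR), which leaves out a 2-fold change in either direction. It was 0.22 without the third siPAIP1 library (adjusted p = 0.0506), 0.07 without the first siPAIP1 library and 0.06 without the second Ctrl library (adjusted p = 0.735), and was not called in any of the 16 alternative fits. Of its exon bases 44.2% overlap TSPAN31 on the opposite strand, which had 319 to 418 counts in siPAIP1 and 343 to 389 in Ctrl, far fewer than the 5657 or more of CDK4.

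CDK6 (ENSG00000105810.9, chr7:92604921-92836573, minus strand) was at 10.25, 10.04 and 8.63 FPKM in siPAIP1, against 7.61, 8.10 and 7.49 FPKM in Ctrl. Every siPAIP1 library was above every Ctrl library. The rise was 0.29 on the log2 scale, or 1.22-fold (SE 0.07, 95% interval 0.12 to 0.46, adjusted p = 0.0456 by edgeR). The call was near the threshold and was lost in 13 of 16 alternative fits, among them those without the first or second siPAIP1 library and without any of the Ctrl libraries (adjusted p up to 0.184), and DESeq2 (adjusted p = 0.0889). It was made more firmly without the third siPAIP1 library (adjusted p = 0.00283). The ratio of CDK6 to CDK4 in FPKM was 0.0980, 0.101 and 0.111 in siPAIP1, against 0.0870, 0.110 and 0.0845 in Ctrl. These values overlapped (exact two-sided permutation p = 0.3). The summed FPKM of the D cyclins stood at 0.454, 0.491 and 0.727 of that of CDK4 and CDK6 in siPAIP1, against 1.22, 1.44 and 1.34 in Ctrl. D cyclin transcripts were thus fewer per length than those of the kinases in each siPAIP1 library and more in each Ctrl library.

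CDKN1A (p21, ENSG00000124762.13, chr6:36676460-36687337, plus strand), a CIP/KIP inhibitor and a direct target of p53, was abundant at 93.44, 98.87 and 80.26 FPKM in siPAIP1, against 110.7, 106.34 and 128.12 FPKM in Ctrl. The groups did not overlap, with the second siPAIP1 library close to the second Ctrl library. The gene fell by 0.37 on the log2 scale, or to 77.4% of Ctrl (SE 0.09, 95% interval −0.57 to −0.17, adjusted p = 0.0367 by edgeR). This call was lost in 10 of 16 alternative fits, among them those without the first or second siPAIP1 library or without any of the Ctrl libraries (adjusted p up to 0.136). Without the third siPAIP1 library the log2 fold change was −0.33 (adjusted p = 0.00543).

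CDKN1B (p27, ENSG00000111276.10, chr12:12685498-12722369, plus strand), the other CIP/KIP inhibitor, was at 18.78, 17.11 and 14.61 FPKM in siPAIP1, against 18.05, 18.07 and 16.7 FPKM in Ctrl. The groups overlapped. The log2 fold change was −0.10 (95% interval −0.30 to 0.11, adjusted p = 0.492 by edgeR). In no alternative fit was the gene called.

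Among the INK4 inhibitors, CDKN2A and CDKN2B rose and CDKN2C did not pass the test. CDKN2A (ENSG00000147889.16, chr9:21967752-21995301, minus strand) was at 4.14, 4.87 and 4.0 FPKM in siPAIP1, against 1.98, 1.62 and 1.96 FPKM in Ctrl. Each siPAIP1 library was above each Ctrl library. The rise was 1.20 on the log2 scale, or 2.30-fold (SE 0.11, 95% interval 0.94 to 1.46, adjusted p = 0.00188 by edgeR), from 444 to 567 counts in siPAIP1 and 191 to 233 in Ctrl. The third siPAIP1 library did not carry it, since the log2 fold change was 1.21 without that library. A gene-level count cannot separate the p16 and p14ARF transcripts, whose starts are printed above. CDKN2B-AS1, which overlaps 593 exon bases of CDKN2A on the opposite strand, had 13, 9 and 16 counts in siPAIP1 and 11, 8 and 7 in Ctrl.

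CDKN2B (p15, ENSG00000147883.10, chr9:22002903-22009305, minus strand), known as a target of TGF-beta signaling, was the lowest of the 10 genes in FPKM in both groups. It was at 1.39, 1.41 and 1.63 FPKM in siPAIP1, against 0.50, 0.53 and 0.50 FPKM in Ctrl. The Ctrl libraries were nearly level and all siPAIP1 libraries lay well above them. The counts were 205, 210 and 231 in siPAIP1, against 75, 80 and 67 in Ctrl. The rise, 1.52 on the log2 scale or 2.86-fold (SE 0.15, 95% interval 1.17 to 1.86, adjusted p = 0.00212 by edgeR), was the largest point estimate of the 10 genes. It was 1.38 without the third siPAIP1 library, its highest.

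CDKN2C (p18, ENSG00000123080.10, chr1:50960745-50974634, plus strand) was at 4.53, 4.66 and 4.21 FPKM in siPAIP1, against 4.62, 4.54 and 4.32 FPKM in Ctrl. The groups overlapped almost fully. The log2 fold change was −0.04 (95% interval −0.21 to 0.14, adjusted p = 0.777 by edgeR), and its sign turned when libraries were scaled by total counts alone (0.026).

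Taking the INK4 genes by level, the sum of CDKN2A, CDKN2B and CDKN2C was 10.06, 10.94 and 9.84 FPKM in siPAIP1, against 7.10, 6.69 and 6.78 FPKM in Ctrl. CDKN2C made up 43.5% ± 1.35 of it in siPAIP1 and 65.5% ± 2.11 in Ctrl (SD, n = 3 each), and CDKN2B 14.4% ± 1.91 in siPAIP1 and 7.45% ± 0.444 in Ctrl. The ratio of CDKN2B to CDKN2A was 0.336, 0.290 and 0.408 in siPAIP1, against 0.253, 0.327 and 0.255 in Ctrl. It overlapped between the groups (exact two-sided permutation p = 0.2, with 0.1 the lowest possible for 3 libraries against 3). A larger rise of CDKN2B than of CDKN2A was thus neither shown nor excluded. Per FPKM of CDK4 and CDK6, the INK4 sum was 0.0876, 0.0996 and 0.114 in siPAIP1, against 0.0747, 0.0819 and 0.0706 in Ctrl.

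By level, the order in siPAIP1 was CDK4, CDKN1A, CCND1, CDKN1B, CCND2, CDK6, CCND3, CDKN2C, CDKN2A and CDKN2B, from the highest mean FPKM to the lowest. In it, the ranges of CDK4 and CDKN1A overlapped, as did those of CCND2 and CDK6, of CCND3 and CDKN2C, and of CDKN2C and CDKN2A. In Ctrl the order was CDKN1A, CCND1, CDK4, CDKN1B, CDK6, CCND3, CDKN2C, CCND2, CDKN2A and CDKN2B. There the ranges of neighbours overlapped for CDKN1A and CCND1 alone.

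Genes that these 10 act on or with were taken by list. Of 8 tested genes among other G1 cyclins, kinases and inhibitors, 0 were called by edgeR or by DESeq2, and 2 had an unadjusted p under 0.05. These were CCNE1 (cyclin E1, log2 fold change 0.26, adjusted p = 0.0943) and CDC25A, a phosphatase that activates CDK2 (0.22, adjusted p = 0.110). With the third siPAIP1 library left out, 2 of the 8 were called higher and 0 lower. CDKN1C, the third CIP/KIP gene, had at most 6 counts and was not tested. MNAT1, a subunit of the CDK-activating kinase, had a log2 fold change of 0.19 (adjusted p = 0.364).

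Of the 13 RB, E2F and DP genes, 1 rose and 0 fell (median log2 fold change 0.07), beside 5.68% and 6.2% of all tested genes. The gene that rose was RBL2, the RB relative p130 (0.51, SE 0.10, adjusted p = 0.0180 by edgeR). Its call was lost without the second siPAIP1 library or any of the Ctrl libraries (adjusted p up to 0.0935). RBL1, the relative p107, had 0.24 (adjusted p = 0.161) and E2F5 had 0.27 (adjusted p = 0.178). In the fit without the third siPAIP1 library, 2 of the 13 were called higher and 2 lower.

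The 20 S phase genes driven by E2F gave 0 calls by edgeR and by DESeq2, and 0 had an unadjusted p under 0.05. Their log2 fold changes lay between −0.21 and 0.13 with a median of −0.06. Nearest to the threshold were ORC1 of the origin recognition complex (−0.19, adjusted p = 0.20) and the replicative helicase subunits MCM3 (−0.14, adjusted p = 0.231) and MCM6 (−0.16, adjusted p = 0.239). With the third siPAIP1 library left out, 1 of the 20 was called higher and 1 lower. With all libraries, no point estimate of this list was beyond 0.21 on the log2 scale at 48 h, where that of CCND1 was −1.43. These point estimates carry errors and do not bound the changes of the 20 genes.

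**Figure D4:**
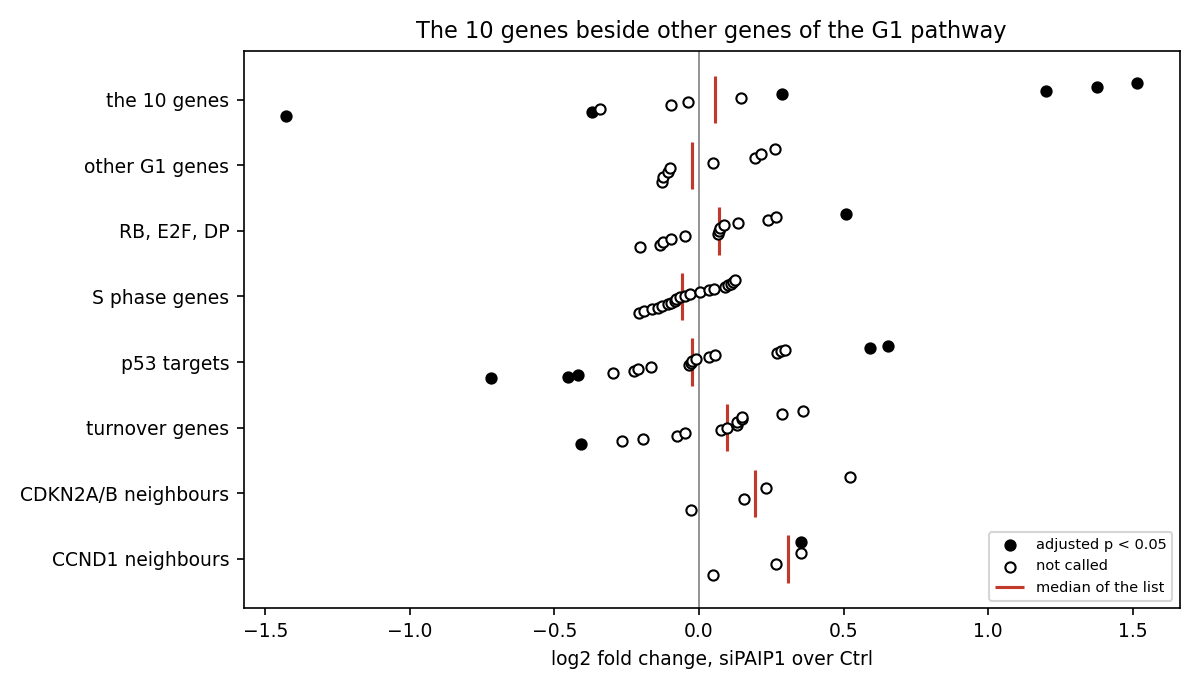
Log2 fold change of siPAIP1 over Ctrl (x axis) for the 10 genes and for 7 lists of other genes (y axis); each point is a gene, filled where the adjusted p is under 0.05, and the red line is the median of the list. The S phase genes lie between −0.21 and 0.13, while CCND1 at −1.43 and CDKN2B at 1.52 are the outermost points of the plot.

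CDKN1A stood among 18 other p53 target genes of which 2 rose and 3 fell (median log2 fold change −0.03), a mixed pattern. GDF15, a secreted stress cytokine, fell by 0.72 on the log2 scale (SE 0.08, adjusted p = 0.00317 by edgeR), BTG2, an antiproliferative gene, rose by 0.59 (SE 0.08, adjusted p = 0.00546), and both calls held in all 16 alternative fits. SESN1, a stress-induced regulator of mTORC1, fell by 0.45 (adjusted p = 0.0253), a call lost without the second siPAIP1 library or any of the Ctrl libraries (adjusted p up to 0.115). Leaving out the third siPAIP1 library gave 5 of the 18 called higher and 5 lower, beside 11.8% and 12.4% of all genes in that fit.

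Of 13 genes for ubiquitin ligases and the turnover of D cyclins and p27, 1 fell and 0 rose (median log2 fold change 0.10). Of all tested genes, 6.2% were called lower and 5.68% higher. SKP1, a core subunit of SCF ligases, fell by 0.41 (SE 0.09, adjusted p = 0.0327 by edgeR), a call lost without the first or second siPAIP1 library or any of the Ctrl libraries (adjusted p up to 0.137). GSK3B, the kinase that marks cyclin D1 for export and degradation, had 0.29 (adjusted p = 0.0532), and SKP2, the subunit that recognises p27, had −0.27 (adjusted p = 0.104). With the third siPAIP1 library left out, 1 of the 13 was called higher and 3 lower.

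The chromosomal neighbours of CDKN2A, CDKN2B and CCND1 gave smaller point estimates, though those of CDKN2B-AS1 and DMRTA1 had wide errors at a low level. Near CDKN2A and CDKN2B, 0 of 4 tested neighbours were called by edgeR or by DESeq2, and 0 had an unadjusted p under 0.05. MTAP, a methionine salvage enzyme, had a log2 fold change of 0.15 (SE 0.07, adjusted p = 0.181), DMRTA1 had 0.23 (SE 0.36), KLHL9 had −0.03 (SE 0.08) and CDKN2B-AS1 had 0.52 (SE 0.37, adjusted p = 0.389) on few counts. ELAVL2 had at most 1 count. Near CCND1, where CCND1 fell by 1.43, FADD rose by 0.35 (SE 0.08, adjusted p = 0.0378 by edgeR). That call was lost in DESeq2 and without the first or second siPAIP1 library or any of the Ctrl libraries (adjusted p up to 0.161). It was made without the third siPAIP1 library (adjusted p = 0.00377), where 2 of the 4 tested neighbours of CCND1 were called higher. MYEOV had 0.27 (adjusted p = 0.182), TPCN2 had 0.35 (adjusted p = 0.282) and LTO1, listed in the files as ORAOV1, had 0.05 (adjusted p = 0.745). FGF19 had at most 12 counts and FGF4 at most 2.

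The genes whose profile over the 6 libraries was most like that of CCND1 were SLC48A1, a heme transporter, PRSS8, a membrane serine protease, and RAB11FIP1, a RAB11 effector. Likeness was the root-mean-square difference of log2 CPM from the Ctrl mean, searched over 11022 genes, and was 0.14, 0.14 and 0.15 in that order. Their log2 fold changes were −1.31 for SLC48A1, −1.46 for PRSS8 and −1.23 for RAB11FIP1. For CDKN2B the nearest genes were GRB10, an adaptor of insulin receptor signaling, OGFR, the opioid growth factor receptor, and BICD2, a dynein adaptor. Their differences from CDKN2B were 0.11, 0.13 and 0.15, and their log2 fold changes were 1.53 for GRB10, 1.51 for OGFR and 1.32 for BICD2. Since likeness was measured from the Ctrl mean, fold changes near those of CCND1 and CDKN2B follow from how these genes were chosen. Shared regulation was not tested.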

How the data were processed

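Poly(A) RNA of 6 HepG2 libraries, 3 siPAIP1 and 3 Ctrl, was sequenced by the authors, trimmed with FASTX-Toolkit 0.0.13 and aligned to GRCh38 with TopHat2. The deposited counts are uniquely mapped fragments per gene without normalization, and the authors' FPKM values scale fragments by exon length and library. Neither the counting tool nor its strand setting nor the gene annotation is named in the sources used here. Reads of overlapping genes, on either strand, may therefore be mixed. Counts were scaled by TMM and filtered with filterByExpr in edgeR 4.0.16 (R 4.3.3), which kept 15528 of 30987 genes. Groups were compared with glmQLFit and glmQLFTest and Benjamini-Hochberg adjustment over those genes; calls have an adjusted p under 0.05. Ratios of FPKM were compared by exact permutation. Alternatives used limma 3.58.1 on log2(FPKM + 1) and log2(FPKM + 0.1), DESeq2 1.42.0, the edgeR exact test, other scalings and filters, a replicate block, a fold threshold of 2 and leaving out each library. The limma fits kept genes with an FPKM of at least 1 in 3 or more libraries. The edgeR fit was tested on simulated data. Figures and sequence searches used Python 3.11.15.

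The 10 genes and all lists were chosen with earlier results of these data known. Named genes are the 10 genes, PAIP1, up to 3 genes of each list with the lowest adjusted p (up to 6 in lists of 5 or fewer tested genes), and the 3 genes most like CCND1 and CDKN2B. Genes with too few counts to test were named outside that rule. Promoter windows and G and C content come from RefSeq tables (GRCh38.p14); gene positions, overlaps and UTRs from GENCODE 44, to which all 10 genes were matched by gene ID without version. The siRNA sequences come from the study's own list.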

Additional observations from a re-analysis of the deposited data

How the results depend on the processing

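CCND1, CCND2, CDKN2A and CDKN2B kept their direction and call in all 16 alternatives, with log2 fold changes of −1.61 to −1.35, 1.19 to 1.45, 0.90 to 1.26 and 0.71 to 1.58 in that order; the smallest rises of CDKN2A and CDKN2B came from log2(FPKM + 1), a scale that shrinks changes of low genes. For CDKN2B the limma fits are no support, since it passed their FPKM filter through the siPAIP1 libraries alone. CDK6 was called in 3 of 16 and CDKN1A in 6 of 16. CCND3 was called in 2 of 16 (adjusted p = 0.0439 among genes with a CPM of at least 1 in 3 libraries, and 0.0174 without siPAIP1 replicate 3). CDK4, CDKN1B and CDKN2C were never called, and CDKN2C changed sign (0.026) with total counts and no factors. Of the 10 genes, 1 was lower instead of 2 with upper-quartile factors, with total counts and no factors, with either limma fit on FPKM and with a fold of at least 2, and 1 to 3 when a library was left out; 3 to 4 were higher.

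Over all genes, the 882 called higher became 173 and the 963 called lower became 171 with a fold of at least 2, and 534 or 535 were lower by limma on log2(FPKM + 1) or log2(FPKM + 0.1). Leaving out 1 library gave 187 to 1857 higher and 269 to 1952 lower, the largest numbers without siPAIP1 replicate 3. Deviations of same-numbered libraries correlated at 0.26, −0.28 and −0.15 over 15528 genes. With so few libraries per group, and the third siPAIP1 library standing apart, these values cannot tell whether the numbers pair the samples. With a replicate block, 366 genes were higher and 459 lower, and 1 of the 10 genes was lower. The difference in the CCND1 to CCND3 ratio was −1.33 to −0.96 with 1 library left out, that of CDK6 to CDK4 0.08 to 0.27, and that of CDKN2B to CDKN2A 0.17 to 0.43. The causes of these shifts were not tested. CDKN2B, at 67 to 80 counts in Ctrl, had the widest interval among the genes that rose.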
